A study of Dendroctonus valens with 12 samples.

Results

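The trehalase-like unigene TRINITY_DN23361_c0_g1 of the red turpentine beetle *Dendroctonus valens* was examined in whole larvae and whole adults of January and May. It is 1 of 58956 unigenes, that is, gene-level sequences assembled from the reads without a genome, and its best protein match was a trehalase-like sequence of the related beetle *Dendroctonus ponderosae*. The unigene was chosen by its own levels in these libraries, so its levels and differences are a description and no test of them is given.

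Trehalase splits trehalose, the main blood sugar of insects, into glucose that cells can burn or store. Trehalose is made mostly in the fat body, leaves it through the transporter Tret1, and is also one of the sugars that protect insects in the cold. Trehalase therefore stands between a circulating store and the glucose used by muscle, gut and growing cuticle.

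The 12 libraries came from single whole insects in 4 groups of 3: mature larvae labelled cold, mature larvae labelled normal, adults labelled cold and adults labelled normal. Per the methods of the study, cold insects were taken from the field in January and normal insects in May, and the groups are named by month and stage. The sources used here do not state the sex. Month, field temperature, feeding and position within the stage cannot be told apart, and a whole insect does not show which tissue holds a transcript. In such bulk samples fewer cells of a type and less RNA per cell cannot be told apart.

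The values were FPKM as deposited, that is, fragments per unit of unigene length and of mapped fragments in the library. They summed to between 787758 and 1788297 per library, and 8291 to 28292 unigenes reached 1 FPKM. January larva 3 and May larva 1 stood apart from the other larvae with 25771 and 16681 unigenes at 1 FPKM, against 15028 to 18600 and 8291 to 8428 in the other libraries of their groups. Of the 2 larval cuticle unigenes the summed level was 41.5 to 545 FPKM in larvae and 1.89 to 15.6 FPKM in adults, but the sum came from TRINITY_DN12641_c0_g1 (39.89 to 544.89 FPKM in larvae, 1.30 to 14.46 in adults). The other, TRINITY_DN20921_c0_g5, stayed at or below 2.20 FPKM and did not separate the stages, so this check of the stage labels rests on 1 unigene. The list of 6 adult cuticle and odorant-sensing unigenes did not separate adults. Its sum was 4.27 to 14.8 FPKM in adults, 20.6 to 75.8 FPKM in the January larvae and 1.70 to 4.91 FPKM in the May larvae. Most of the January larval sum came from odorant binding protein 18 (TRINITY_DN17671_c0_g1), at 56.87, 13.37 and 17.13 FPKM. The 59 listed matches to nematodes held 0.000626 to 0.257% of the FPKM of a library. Only 2652 of the 58956 unigenes had a name in the annotation rows used, so the full nematode share may be higher. Per the paper, the reads of every May larva had a higher GC content than those of any other library. The part of nematodes and of GC content in the results was not tested.

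Trehalase was high in winter in larvae and high in spring in adults. Its level was 11.04, 7.58 and 8.0 FPKM in January larvae 1, 2 and 3 and 0.30, 0.85 and 0.55 FPKM in May larvae 1, 2 and 3. In January adults it was 5.13, 5.58 and 5.55 FPKM, and in May adults it was 16.78, 50.77 and 22.90 FPKM. Every January larva lay above every May larva, and every May adult lay above every January adult.

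**Figure D1:**
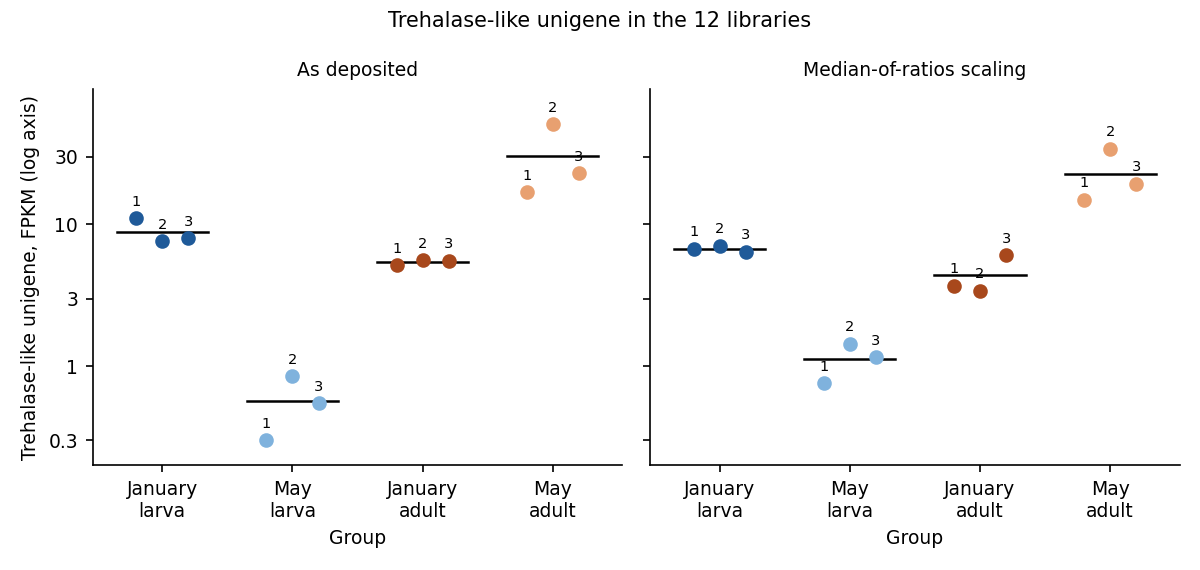
Level of the trehalase-like unigene in each of the 12 libraries (points, numbered by library, log axis in FPKM) with the group mean (bar), as deposited on the left and after median-of-ratios scaling on the right. May larvae sit at the bottom and May adults at the top in both panels, and no 2 groups overlap in either.

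The 4 groups fell in the order May adults, January larvae, January adults and May larvae, with means of 30.2 ± 18.1, 8.87 ± 1.89, 5.42 ± 0.252 and 0.567 ± 0.275 FPKM (SD, n = 3 each). No neighbouring groups overlapped. The lowest May adult was 1.52 times the highest January larva, the lowest January larva was 1.36 times the highest January adult, and the lowest January adult was 6.04 times the highest May larva. The narrowest of these gaps was thus between larvae and adults of January, and it was smaller than the 1.46-fold range among the January larvae themselves.

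The spread within groups was uneven. January adults varied by 4.64% of their mean and May adults by 60.1%, with May adult 2 the highest. Without May adult 2 the mean of the May adults was 19.8 FPKM. Measured against the other unigenes of the same library, trehalase stood above 42.5 to 50.8% of the unigenes at 1 FPKM or more in January adults, 56.9 to 63.8% in January larvae and 82.9 to 92.5% in May adults. In all 3 May larvae it was under 1 FPKM. The FPKM worth of 1 read, estimated from the steps among weak unigenes, was 0.895 to 1.43 times that in January adult 1. The number of reads behind a value is not known, so no counting error of the low May larval levels can be given.

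January against May asks how the 2 seasons differ within a stage. In larvae the January mean was 15.7 times the May mean. On the log2(FPKM + 1) scale the difference was 2.65 (SE 0.35), and leaving out any 1 of the 6 larvae gave 2.50 to 2.78. Without both January larva 3 and May larva 1 it was 2.59. The added 1 is larger than the May mean, so this scale understates the difference.

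In adults the May mean was 5.56 times the January mean, a log2 difference of -2.13 for January minus May (SE 0.55). Leaving out any 1 of the 6 adults gave -2.45 to -1.68, the smallest difference being without May adult 2. January larvae and January adults differed by 1.64-fold in their means, a log2 difference of 0.61. Its SE of 0.68 comes from the limma fit, which draws the spread of a unigene towards that of others of like level, and the levels of trehalase itself did not overlap. May adults stood 53.2 times above May larvae, a log2 difference of -4.18 for larvae minus adults (SE 0.47). The larval season effect minus the adult season effect came to 4.78 on the log2 scale (SE 0.66) over all 12 libraries.

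Scaling of the libraries changed the size of the larval difference and not the direction. Median-of-ratios scaling divides each library by its median ratio to a common reference of 9529 unigenes seen in all 12 libraries, and its factors were 0.395 to 0.591 in May larvae and 0.914 to 1.64 in the other groups. After it the means were 22.8 ± 10.1 FPKM in May adults, 6.74 ± 0.342 FPKM in larvae of January, 4.39 ± 1.46 in January adults and 1.12 ± 0.341 in May larvae. The ratio of January to May in larvae became 6.02, and that of May to January in adults became 5.19. The order of the 4 groups stayed without overlap, although the lowest January larva was then only 1.05 times the highest January adult.

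The other scalings gave like pictures. With equal FPKM sums the larval ratio was 17.9 and the adult ratio 7.07, and with scaling over 1294 unigenes that match *D. ponderosae* they were 8.22 and 4.38. Season effects of the unigene therefore came closer in size in both stages after median-of-ratios scaling, while the gap between May adults and May larvae ranged from 20.4-fold to 84.0-fold over the 4 ways of scaling.

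**Figure D2:**
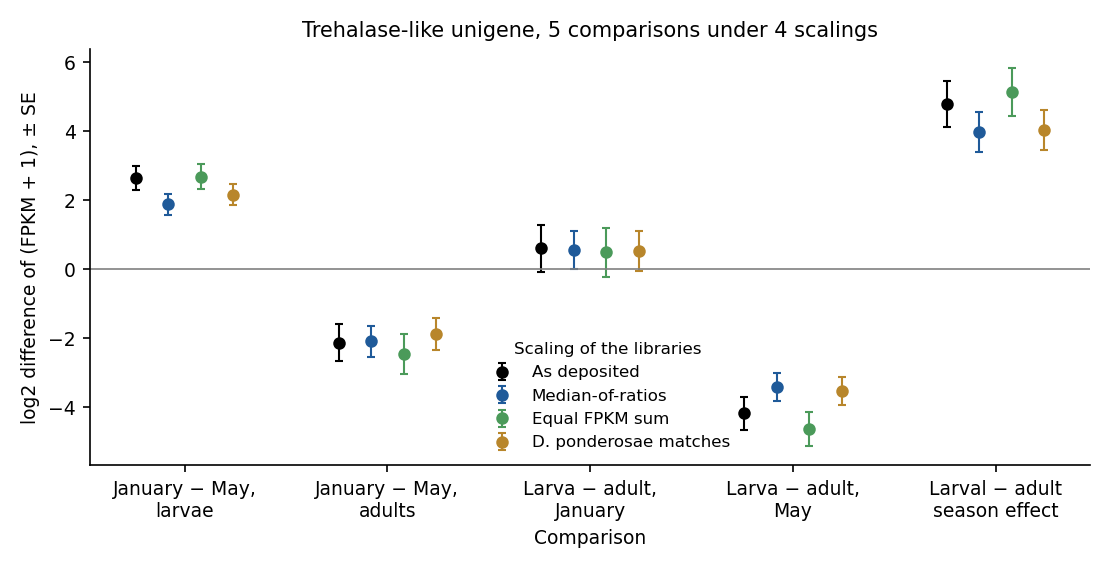
Log2 difference of (FPKM + 1) for the trehalase-like unigene in the 5 comparisons (points, bars are SE of the limma fit) under 4 scalings of the libraries. The larval season effect is above 0 and the adult season effect below 0 under each scaling, and January larvae minus January adults lies between 0.50 and 0.61.

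Most unigenes were higher in January, so the change of trehalase is also given relative to the median unigene. In larvae the median log2 difference of the 11635 unigenes tested was 1.26 as deposited and 0.31 after median-of-ratios scaling, and trehalase lay 1.40 and 1.57 above it. In adults the median of 23423 unigenes was 1.02 and 0.94, and relative to it trehalase stood at -3.14 and -3.03. As deposited, 15.1% of the unigenes tested had a larger January excess than trehalase in larvae, and 3.65% had a larger May excess in adults. For the difference of the season effects 0.601% of 28117 unigenes lay further out.

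Of the 10726 unigenes tested in both stages, 697 or 6.50% had the same reversal, with every January larva above every May larva and every May adult above every January adult. After median-of-ratios scaling 358 (3.34%) did. The full order of the 4 groups without overlap was shared by 11 unigenes including trehalase (0.103%), and by 9 (0.0839%) after scaling. These shares are a description of the libraries, since trehalase was picked for this pattern.

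Trinity, the assembler, placed 9 unigenes in the read cluster of trehalase, and 3 of the others reached 1 FPKM in 3 or more libraries. TRINITY_DN23361_c1_g2 matched catenin delta-2, an armadillo-repeat protein of cell contacts. Its level was 27.05, 21.09 and 17.07 FPKM in the January larvae and 0.71, 1.27 and 1.64 FPKM in May larvae. In January adults it was 15.12, 16.44 and 10.31 FPKM, and in May adults 27.97, 23.34 and 29.28 FPKM. It thus followed trehalase between seasons in both stages, but January larvae reached the level of May adults.

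Catenin delta-2 was higher in January larvae than in May larvae by 3.37 on the log2 scale (limma adjusted p = 0.00127), and its adult difference of -0.92 was not called (adjusted p = 0.138). The difference of its season effects was 4.28 (SE 0.54, adjusted p = 0.00288), and it was called in the same direction under 17 of 19 alternatives. TRINITY_DN23361_c1_g6, with no name, had 3.32 to 6.62 FPKM in the January larvae, 0.42 to 1.12 in May larvae, 1.43 to 4.03 in January adults and 4.27 to 5.63 in May adults, and the difference of its season effects was not called (2.40, adjusted p = 0.0533). TRINITY_DN23361_c1_g1 did not share the pattern, at 0, 0.18 and 5.82 FPKM in the January larvae, 1.76, 0 and 0 in May larvae, 9.03, 6.67 and 3.17 in January adults and 1.27, 1.08 and 0 in May adults. In larvae it was high only in January larva 3 and May larva 1. Whether reads were shared between members of the cluster was not tested.

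Unigenes with the most similar profile were found by Pearson r of log2(FPKM + 1) with trehalase over the 12 libraries, among 28116 unigenes of which 1975 had a name in the annotation rows used. The 10 highest had r of 0.958 to 0.978, and 3 of them had a name. By Spearman rho, 0 of these 10 were among the first 10. Of the 5 nearest with a name, all but TRINITY_DN25982_c0_g2 are in the study's table of changed unigenes, which is part of the annotation rows used. Because 12 libraries in 4 groups share their group differences and their depth, r describes a likeness of levels only. A total of 305 unigenes had r of at least 0.9, and 87 after median-of-ratios scaling.

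The nearest named unigene, TRINITY_DN25982_c0_g2 (r = 0.973), matched the kinase MAP4K5, of a kinase family that acts upstream of stress-activated MAP kinases. It had 8.02, 4.5 and 5.51 FPKM in the January larvae, 0.21, 0.81 and 0.83 in May larvae, 5.74, 5.90 and 4.55 in January adults and 14.61, 17.71 and 14.13 in May adults. Unlike trehalase, its January larvae and January adults overlapped.

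A Rab-23 match, TRINITY_DN24882_c0_g1 (r = 0.965), a small GTPase of membrane traffic, spanned 0.10 to 1.02 FPKM in May larvae and 99.66 to 216.64 FPKM in May adults. TRINITY_DN22443_c2_g2 (r = 0.965) matched NDUFA12, an accessory subunit of mitochondrial complex I, and had 4.28 to 7.07 FPKM in May larvae and 78.54 to 148.34 FPKM in May adults. In both, May adult 2 was the highest library, as it was for trehalase. The match to transmembrane protein 35B, TRINITY_DN21631_c1_g1 (r = 0.957), was nearly silent in May larvae at 0.02 to 0.03 FPKM and reached 23.49 to 25.41 FPKM in May adults, and its 4 groups had the order of trehalase without overlap. The biotin--protein ligase match TRINITY_DN23019_c1_g1 (r = 0.955), which attaches biotin to carboxylases, stayed at or below 3.61 FPKM throughout.

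**Figure D3:**
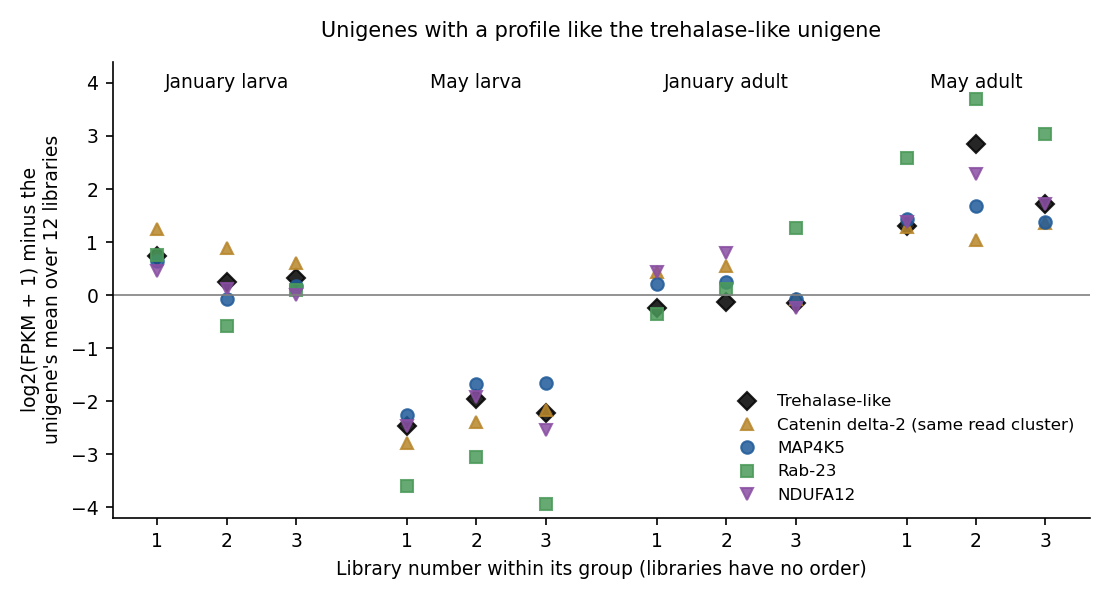
Log2(FPKM + 1) minus the mean of each unigene over the 12 libraries, for trehalase, the catenin delta-2 unigene of its read cluster and the 3 named unigenes among the 10 most similar. Points of all 5 are lowest in the May larvae and at or above 1 in the May adults.

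A second trehalase-like unigene, TRINITY_DN31308_c0_g1, which matched the moth *Plutella xylostella*, was at 2.97 FPKM in January larva 1 and listed at 0 in the other 11 libraries. It could not be tested.

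The sugar pathway around trehalase was taken from annotation as 24 further unigenes. They were this second trehalase-like unigene, 11 matches to the trehalose transporter Tret1 (the transporters below) and 12 matches to enzymes or carriers of glucose and starch use. Of the 24, 14 came from the study's own table of unigenes that changed between seasons in these libraries, and a list picked that way cannot bear independently on whether its members changed. The study called these 14 in both stages with DESeq2 on counts. A member not called here can therefore be among those the study called. A unigene was tested where at least 3 of the 6 libraries of a comparison reached 1 FPKM, and called at an adjusted p under 0.01 (limma, two-sided, Benjamini-Hochberg over all unigenes tested) with a log2 difference of at least 1.

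In larvae 19 of the 24 were tested, among them all 14 taken from the study's table of changed unigenes. The shares of all unigenes are therefore a background, not an expectation for a list picked that way. Of these, 6 were lower in January, where 3.63% of all unigenes tested were, and 2 were higher, where 32.0% of all were. The list median was -1.05, against 1.26 for all unigenes. In adults 6 of 19 were lower in January, where 4.30% of all unigenes were, and none was higher, where 28.3% of all were. The list median was -1.72, against 1.02. Median-of-ratios scaling gave 11 lower and 2 higher in larvae, where 10.2% and 14.5% of all unigenes then were. In adults it gave 9 lower and none higher, where 5.06% and 32.3% of all were.

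These counts rested on few insects. Leaving out 1 larva left 2 or 3 transporters called lower instead of 4, and leaving out both January larva 3 and May larva 1 left none of the list called, where none of all 11635 unigenes was called either. The list median was then -0.96, close to the -1.05 with all larvae. Without January adult 2, or without May adult 3, no transporter was called in adults, where only 39 and 50 of all 23423 unigenes were.

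The transporters are named by a match to Tret1, which carries trehalose across cell membranes, and what each carries was not tested. Among them 2 were lower in January in both stages as deposited. TRINITY_DN20184_c0_g1 had 0.33, 1.43 and 0.91 FPKM in the January larvae and 34.60, 16.15 and 13.97 in May larvae, and 0.20, 0.89 and 0.91 FPKM in January adults against 31.36, 43.83 and 54.80 in May adults. Its log2 differences were -3.51 (adjusted p = 0.00190) and -4.73 (adjusted p = 0.00148). TRINITY_DN22684_c0_g1 had 0.51 to 0.82 FPKM in the January larvae, 28.47 to 53.89 in May larvae, 0.86 to 1.31 in January adults and 29.22 to 30.15 in May adults, with log2 differences of -4.53 (adjusted p = 0.00113) and -3.85 (adjusted p = 0.00167). May larvae, in which trehalase was lowest, thus held both carriers well above the January insects of either stage.

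TRINITY_DN25295_c0_g2 was the transporter most like trehalase (r = 0.860). Its level was 4.80, 3.13 and 4.32 FPKM in the January larvae, 0.18, 0.28 and 0.14 in May larvae, 0.61, 2.58 and 3.86 in January adults and 5.70, 3.96 and 5.40 in May adults. It was higher in January larvae (log2 difference 2.07, adjusted p = 0.00140), and neither its adult difference of -0.97 (adjusted p = 0.166) nor the difference of its season effects (3.04, adjusted p = 0.0271) was called.

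TRINITY_DN20263_c0_g2 shared the adult difference, with 25.09 to 50.98 FPKM in May adults and 0.92 to 6.04 FPKM in the other 9 libraries (January minus May in adults -3.44, adjusted p = 0.00219). TRINITY_DN21956_c0_g7 ran opposite to trehalase in larvae, with 43.95, 12.35 and 34.23 FPKM in May larvae and 2.91 to 4.42 in January larvae (log2 difference -2.56, adjusted p = 0.00709). In adults it was at 1.22 to 3.96 FPKM in both months.

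As deposited, the other 6 transporters were called between seasons in 1 stage at most. TRINITY_DN23716_c0_g1 was lower in January in larvae (-2.81, adjusted p = 0.00740), and TRINITY_DN22833_c0_g1 was lower in January in adults (-2.68, adjusted p = 0.00530). After median-of-ratios scaling the latter was called lower in larvae too (-2.92, adjusted p = 0.00388, from -1.65). TRINITY_DN23651_c0_g1 had 7.57 to 58.92 FPKM in larvae and 0.03 to 7.09 in adults, without overlap. It was higher in larvae than in adults in May by 2.83 (adjusted p = 0.00286). Between seasons it was not called as deposited, and after median-of-ratios scaling it was lower in January in larvae (-2.99, adjusted p = 0.00685) and in adults (-1.78, adjusted p = 0.00834). TRINITY_DN19534_c0_g2, TRINITY_DN25186_c0_g1 and TRINITY_DN23429_c0_g2 stayed at or below 10.05 FPKM and were not called between seasons. The study's table of changed unigenes does hold TRINITY_DN19534_c0_g2 and TRINITY_DN25186_c0_g1. No transporter was called for the difference of the season effects.

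**Figure D4:**
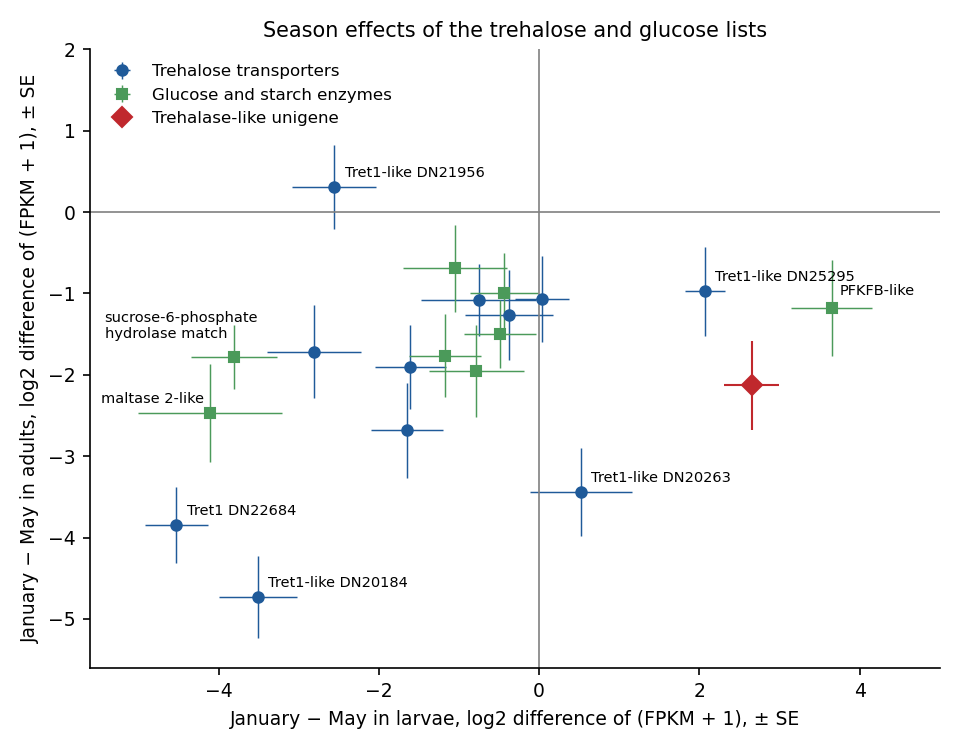
January minus May in larvae against January minus May in adults, as log2 differences of (FPKM + 1) with SE bars, for the 11 transporters, the 8 other list members tested in both stages and trehalase. Trehalase lies at 2.65 and -2.13, and most of the list lies at the lower left, with 8 of 11 transporters below 0 in larvae as plotted and 10 of 11 after median-of-ratios scaling.

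Among the enzymes, the closest to trehalase was TRINITY_DN24049_c0_g4 (r = 0.858), a match to 6-phosphofructo-2-kinase/fructose-2,6-bisphosphatase (PFKFB), which makes and removes an activator of glycolysis. It had 242.45, 193.64 and 113.65 FPKM in the January larvae and 10.42, 25.22 and 8.15 in May larvae (log2 difference 3.65, adjusted p = 0.00192). In adults it had 38.34, 116.71 and 49.65 FPKM in January and 78.75, 194.00 and 172.37 in May, which overlapped (-1.17, adjusted p = 0.128). The difference of its season effects was 4.83 (SE 0.80, adjusted p = 0.00741), the 1 call among the 19 list members tested, where 1.41% of all unigenes were called in this direction and 0.210% in the other, none of the list being among the latter. That call held under 3 of 19 alternatives. It was lost when any library other than January adult 2 was left out, and after median-of-ratios scaling. The difference stayed between 3.47 and 5.38 over the 19 alternatives, with adjusted p of 0.00523 to 0.0245.

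The maltase 2-like TRINITY_DN22963_c0_g1, an enzyme that frees glucose from maltose, ran against trehalase in larvae. It had 1.62, 27.09 and 2.38 FPKM in the January larvae and 93.84, 137.59 and 96.99 in May larvae (-4.11, adjusted p = 0.00874), and in adults it was also lower in January (-2.47, adjusted p = 0.00808). The match to sucrose-6-phosphate hydrolase, TRINITY_DN20776_c0_g1, fell in January in both stages (-3.81, adjusted p = 0.00197, and -1.78, adjusted p = 0.00549).

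The remaining enzymes belong to glucose use and synthesis. Phosphoglucomutase (TRINITY_DN19635_c1_g1), which joins glycogen to glycolysis, was at 16.87 to 57.84 FPKM and not called between seasons in either stage as deposited. After median-of-ratios scaling its larval difference moved from -0.44 to -1.84 and was called (adjusted p = 0.00483). Glyceraldehyde-3-phosphate dehydrogenase 2 (TRINITY_DN22610_c0_g2), a glycolytic enzyme, was at 172.13 to 702.76 FPKM and fructose-1,6-bisphosphatase 1 (TRINITY_DN21780_c1_g1), of glucose synthesis, at 12.38 to 139.02 FPKM, neither called between seasons as deposited. Both are in the study's table of changed unigenes, and the paper reports qPCR differences in both stages that matched its sequencing. After median-of-ratios scaling the dehydrogenase was lower in January in larvae (-1.92, adjusted p = 0.00918, from -0.49) and in adults (-1.52, adjusted p = 0.00971), and the bisphosphatase was lower in larvae (-2.60, adjusted p = 0.00352, from -1.17). The hexokinase match (TRINITY_DN18664_c0_g1), which phosphorylates the glucose that trehalase frees, was at 4.06 FPKM in January larva 3, 4.45 in January adult 3 and at or below 0.72 in the other 10 libraries, and could not be tested within a stage. In the same pair of libraries the glucose-6-phosphate 1-epimerase match (TRINITY_DN20511_c2_g5) was at 5.03 and 3.94 FPKM, and it was listed at 0 in the other 10.

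The aldo-keto reductase 1B match (TRINITY_DN24114_c0_g4), of the polyol route, was at 6.32 to 160.19 FPKM and the sugar carrier SWEET1 (TRINITY_DN20419_c2_g1) at 4.02 to 34.64 FPKM, and neither was called between seasons as deposited. After median-of-ratios scaling the aldo-keto reductase was lower in January in adults (-1.96, adjusted p = 0.00630). A match to glycogen synthase of a fish (TRINITY_DN31389_c0_g1) was at 3.92 and 2.41 FPKM in January larvae 1 and 2. A match to aldose reductase of *Asbolus verrucosus* (TRINITY_DN11637_c0_g1) was at 2.47 FPKM in January larva 1. Both were listed at 0 in all other libraries and were not tested. Whether the fish match is a sequence of the beetle was not tested either.

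Between the stages in January, none of 16 list members tested was called, where 0.0680% of all unigenes were called in either direction. Without January larva 3, 1 of the 16 was, where 32.5% of all unigenes then were. In May 3 of 19 were higher in larvae, where 4.70% of all unigenes were, and 3 were lower, where 27.4% of all were. The lower ones were the PFKFB match and the transporters TRINITY_DN20263_c0_g2 and TRINITY_DN25295_c0_g2. These 3 are named here because they were called in that direction, and trehalase had it too. Median-of-ratios scaling gave 5 higher and none lower, where 9.92% and 9.96% of all unigenes then were. The list median of 0.28 in May turned to -0.42 with equal FPKM sums, and the median difference of the season effects, 0.59 as deposited, turned to -0.83 after median-of-ratios scaling.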

How the data were processed

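Each of the 12 libraries was made from 1 whole insect, and 4 groups of 3 were formed from the labels cold or normal and larva or adult. The months come from the methods of the study. Per the labels and methods, the authors assembled the reads with Trinity, used Bowtie2 2.3.5.1 for alignment and RSEM 1.2.31 for quantification, and deposited FPKM with 2 decimals, with no scaling between libraries stated. FPKM hide the number of reads behind a value, so no counting error can be given. Only the spread between insects shows the precision. The paper does give the clean bases sequenced per library, but not the fragments behind each level. Reads that fit several unigenes are divided by RSEM, which can move levels between related unigenes.

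Values of log2(FPKM + 1) entered a limma 3.58.1 fit in R 4.3.3 (trend option) over the unigenes with at least 1 FPKM in at least 3 libraries of a comparison. Calls needed an adjusted p under 0.01 (Benjamini-Hochberg over all unigenes tested) and a log2 difference of at least 1. Each pairwise fit used its own 6 libraries, and the difference of the season effects used 12. The fits were tested on simulated data. Tables and figures used Python 3.11.15 with pandas 2.3.3, numpy 2.4.6 and matplotlib 3.10.9.

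Names come from the readable rows of 2 annotation tables of the study, 1 of which lists unigenes changed between seasons. Named are trehalase, members of its read cluster at 1 FPKM in 3 or more libraries, 24 list members, and the 10 nearest unigenes by Pearson r with the 5 nearest that have a name. The unigene, the lists and the rule were chosen with earlier results of these data known. The scaling, the added value, the filter, the libraries in the fit, the threshold and the replicate number as a block were varied. Sequences are not shown.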

Additional observations from a re-analysis of the deposited data

Results flagged for a closer look

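Only trehalase, the 24 list members and unigenes of the read cluster of trehalase were looked at for this. Flagged among them were 5 unigenes whose season effects passed the test of the difference or ran opposite between the stages without overlap. Of all 28117 unigenes tested, 1.62% passed that test, and 6.50% of 10726 had the reversal of trehalase. Values are larval minus adult log2 differences of (FPKM + 1). Trehalase, TRINITY_DN23361_c0_g1, came to 4.78, with every January larva above every May larva and every May adult above every January adult. It was chosen for this pattern, so the difference was not tested. Catenin delta-2, TRINITY_DN23361_c1_g2, came to 4.28 and passed the test of the difference (limma adjusted p = 0.00288). The unnamed TRINITY_DN23361_c1_g6 of the same read cluster came to 2.40, and the Tret1-like TRINITY_DN25295_c0_g2 to 3.04. Both had opposite seasons without overlap as deposited, and the test of the difference gave adjusted p = 0.0533 and 0.0271, short of the threshold of 0.01. For TRINITY_DN25295_c0_g2 the adult gap was narrow, at 3.86 FPKM in January adult 3 against 3.96 in May adult 2. The median-of-ratios factors of 0.914 and 1.485 for these libraries turn that order around. The PFKFB match TRINITY_DN24049_c0_g4 came to 4.83 and passed (adjusted p = 0.00741), with overlapping adults. No outlier test of single libraries was run on groups of 3.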

How the results depend on the processing

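The direction of the trehalase differences held in all 5 comparisons under each alternative run, and no call named above reversed. For trehalase most of these runs could not have come out otherwise. Dropping the filter, fitting all 12 libraries or adding a replicate block leaves a difference of group means unchanged. As its groups did not overlap, another added value or fewer libraries could not reverse it either. Only the scalings could have done so, and trehalase was chosen for this pattern. Adding 0.1 in place of 1 gave log2 differences of 3.82 between seasons in larvae, -5.43 between stages in May and 6.11 for the season effects. Median-of-ratios scaling gave 1.88, -3.42 and 3.97, and *D. ponderosae* scaling 2.16, -3.52 and 4.04. Leaving out 1 library gave 2.50 to 2.78 in larvae, -2.45 to -1.68 in adults, 0.45 to 0.70 between stages in January, -4.50 to -3.73 in May and 4.34 to 5.11 for the season effects. Mean levels over 2 insects were 7.79 to 9.52 FPKM in January larvae, 0.425 to 0.700 in May larvae, 5.34 to 5.57 in January adults and 19.8 to 36.8 in May adults. Scaled means were 6.74, 1.12 and 4.39 FPKM with median-of-ratios in January larvae, May larvae and January adults, and 0.911 and 5.04 with *D. ponderosae* scaling in May larvae and January adults. Of the 10 nearest unigenes, 6 stayed in the first 10 after median-of-ratios scaling and 0 by Spearman rho.

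Counts of called unigenes moved far more. With FPKM as deposited they were 4149 between seasons in larvae, 7632 in adults, 16 between stages in January, 5015 in May and 455 for the season effects. Leaving out 1 library gave 953 to 3380, 39 to 9075, 1 to 7657, 1566 to 3398 and 38 to 400. The lowest larval count came without May larva 1, the lowest adult count without January adult 2 (50 without May adult 3), and the count of 7657 without January larva 3. An adjusted p under 0.05 gave 6263, 11607 and 2449 in larvae, adults and season effects, and adding 0.1 gave 4607 in adults, 5 in January and 989 for the season effects. No filter gave 374, 1829, 5, 2064 and 118. Fitting all 12 libraries gave 1098 in adults and 259 in January, and equal sums gave 817 for the season effects. Without January larva 3 and May larva 1 limma called 0 in larvae (5439 at an unadjusted p under 0.05) and 248 for the season effects. Median-of-ratios and *D. ponderosae* scaling both gave 6 in January, and 3106 and 3305 in May. They also moved the split of higher and lower calls in larvae from 3727 and 422 to 1692 and 1191, or 2296 and 852. In May the split moved from 735 and 4280 to 1550 and 1556, or 1384 and 1921. For the season effects it moved from 396 and 59 to 227 and 391, or 209 and 271. In January it moved from 9 and 7 to 2 and 4 under both.

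Groups share the replicate numbers 1 to 3, but each library is a different insect and same-numbered deviations from the group means correlated between -0.645 and 0.418, so the numbers do not pair the samples. With the replicate number as a block limma called 0 unigenes in larvae (6419 at an unadjusted p under 0.05), 7411 in adults, 12 in January, 21 in May and 33 for the season effects. A block balanced over the groups cannot change the trehalase differences themselves. Of the 26 calls of list and read-cluster members, 5 held under the block, 20 after median-of-ratios scaling, 9 without a filter and 83 of 168 with 1 library left out. The cause of these losses was not tested. Groups of 3 single insects and the unknown number of reads behind each level limit every value.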
